A study of Homo sapiens and Mus musculus with 12 samples.

Results

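Mouse cortical organoids that expressed NOTCH2NL-Sh T197I, a form of the human gene family NOTCH2NL, were compared with organoids that carried an empty vector, across all measured genes. The comparison took in 6 of the series' 12 RNA-seq libraries, 3 of the empty vector (EV) and 3 of the NOTCH2NL form (N2NL), and 16682 of 47729 gene identifiers had counts high enough to be tested. The organoids, 3-dimensional aggregates that differentiate toward embryonic forebrain tissue, came from 46C, an established mouse embryonic stem cell line known for a fluorescent reporter placed at Sox1. Both groups were stable lines, the EV line holding the vector alone and the N2NL line holding NOTCH2NL-Sh_T197I, and each library was a pool of 16 organoids harvested on day 6 of differentiation. The labels name a single stable line for each group, so the effect of the transgene and any other difference between the lines cannot be told apart. Which promoter drove the insert and how many clones each line held are not given in the sources used here. Nothing in the labels says whether pools within a group were grown apart, so p-values measure the spread between pools, which may be technical.

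Notch is a receptor on the cell surface that ligands of the Delta and Jagged families on neighbouring cells activate, after which its inner part is cut free and moves to the nucleus. In the embryonic brain, active Notch switches on repressors of the Hes and Hey families, which hold progenitors back from becoming neurons. NOTCH2NL genes arose in the human lineage as partial copies of NOTCH2 that encode the outer part of the receptor, and mice have none. The comparison asks what expression of such a gene does to mouse forebrain tissue early in differentiation.

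The libraries held 16781742 to 20960391 counts, with scaling factors between 0.986 and 1.0084. Levels are in CPM, each count scaled to the size of its library, and a gene with 0 counts could still have stood at up to 0.179 CPM (3 counts, counting error only). Genes expressed in early forebrain neuroepithelium, not all of them particular to it, were present in every library. Among them were Sox2 at 219 to 281 CPM, Pax6 at 100.4 to 116 CPM, Emx2 at 121 to 167 CPM and Vim at 965 to 1177 CPM. Pluripotency markers were still present, with Pou5f1 at 109.6 to 145 CPM. On the first principal component (29.3% of the variance) EV 1 lay at 21.98 and N2NL 1 at 19.08, and the other 4 libraries between -20.53 and -1.04. On the second component (22.4%) these libraries lay at opposite ends, EV 1 at 21.53 and N2NL 1 at -19.97, so they stood apart from each other as well as from the rest. In both EV 1 and N2NL 1, Krt8, Krt18 and Krt19, keratins of simple epithelium, were above all of the other 4 libraries (Krt8 at 741 and 742 CPM, against 340 to 528). The groups themselves separated on the third component (20.4%), with N2NL at 10.82 to 12.11 and EV at -18.46 to 1.69. Results are therefore given on all 6 libraries and, where they are affected, on the 4 libraries numbered 2 and 3.

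The transgene was read in the N2NL libraries alone. In the authors' deposited table of normalized values, the NOTCH2NL row held 0 in each of the 3 EV libraries and 801, 709 and 740 in the N2NL libraries (750 ± 46.8, SD, n = 3) and so separated the groups as labelled. Those values stood at or above 72.6% to 75.1% of the non-zero rows of the same library. The count table that was tested here has no such row. Notch2, the mouse gene from whose human counterpart NOTCH2NL derives, is described with the other Notch genes.

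Genome-wide, 2 genes rose in N2NL and none fell: Nnat, an imprinted gene of developing neural tissue that encodes a small membrane protein, and Klf2, a Krüppel-type transcription factor of the naive pluripotent state. These were 0.0120% of the 16682 genes tested (edgeR quasi-likelihood test, Benjamini-Hochberg adjusted p under 0.05). Without adjustment, p was under 0.05 for 1242 genes (7.45%), 852 that lay higher in N2NL (5.11%) and 390 that lay lower (2.34%). The groups did not overlap for 2118 genes (12.7%): for 1233 all 3 N2NL libraries lay above all 3 EV libraries (7.39%), and for 885 all 3 lay below (5.31%). DESeq2 called 18 genes higher (0.124% of 14559) and 8 lower (0.0549%), both edgeR calls among them, and limma-voom called Nnat alone (0.00599% of 16682). All 26 had an unadjusted edgeR p under 0.05 and groups that did not overlap.

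**Figure D1:**
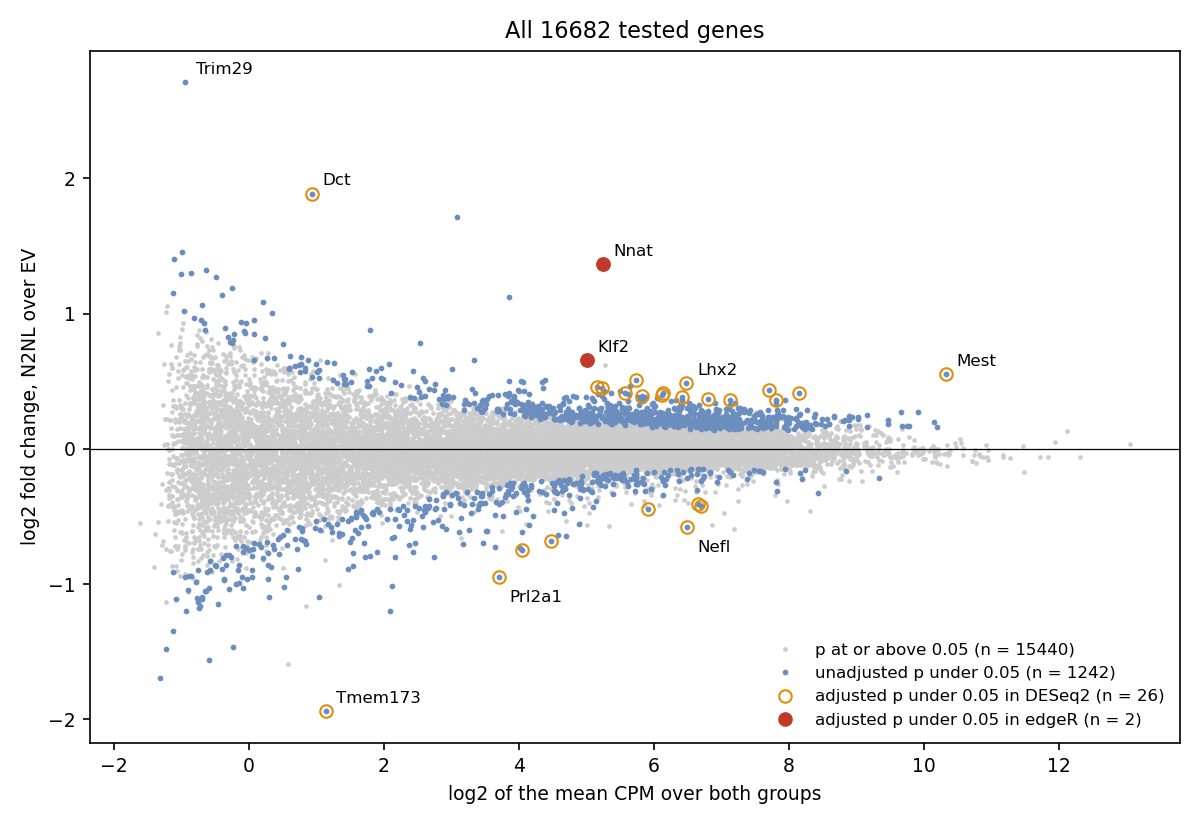
Log2 fold change of N2NL over EV (vertical axis) against the log2 of the mean CPM (horizontal axis) for each of the 16682 genes tested. Nnat and Klf2, the 2 genes called by edgeR, are filled red, and the rest of the 26 genes called by DESeq2 are ringed.

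The common biological coefficient of variation was 9.3% and the SD of the log2 fold change over all genes was 0.217, around a median of -0.006. Among genes with a mean of at least 1 CPM, 15 differed by more than 2-fold and 157 by more than 1.5-fold. The number of edgeR calls depended on which libraries were used: it was 17 without EV 1, 16 without N2NL 1, 1 without EV 2, and 0 without EV 3, N2NL 2 or N2NL 3. On the 4 libraries numbered 2 and 3 it was 366 of 16687 genes (2.19%), of which 181 were higher in N2NL (1.08%) and 185 lower (1.11%), and Nnat and Klf2 were again among them. That fit has 2 libraries a group. The libraries it leaves out were set apart by their expression values in these same data. Its adjusted p-values, here and below, are therefore descriptive and no independent support for a gene that was not called on all 6 libraries.

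Nnat (ENSMUSG00000067786) stood at 16.4, 25.5 and 21.3 CPM in EV 1 to 3 and at 49.5, 59.0 and 55.1 CPM in N2NL 1 to 3. Each N2NL library thus lay well above the highest EV library. The log2 fold change was 1.37 ± 0.14 (approximate standard error, here and below; edgeR adjusted p = 0.0143). Klf2 (ENSMUSG00000055148) stood at 25.3, 23.6 and 25.96 CPM in EV and at 37.96, 42.4 and 37.7 CPM in N2NL, again with no overlap. Its log2 fold change was 0.66 ± 0.09 (edgeR adjusted p = 0.0368). Nnat passed the threshold in 12 of 15 alternative analyses and Klf2 in 9 of 15.

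The other genes among the 10 smallest p-values had edgeR adjusted p between 0.093 and 0.116, and none of their groups overlapped. Mest, an imprinted gene of mesoderm and neural progenitors that is expressed from the paternal copy, was the most strongly counted of them, at 893, 1093 and 1114 CPM in EV and 1465, 1551 and 1533 CPM in N2NL (log2 fold change 0.55 ± 0.09). Dmrt3 and Lhx2, transcription factors of the dorsal telencephalon, lay higher in N2NL and Gap43, a growth cone protein of young neurons, lay lower. Trim29 was close to undetected in EV, at 0.109, 0.0947 and 0.196 CPM against 0.947, 0.951 and 0.828 CPM in N2NL. Tmem173, which encodes the innate immune adaptor STING, went the other way, from 3.53, 2.65 and 4.25 CPM in EV to 0.498, 1.25 and 1.01 CPM in N2NL (log2 fold change -1.94 ± 0.31, edgeR adjusted p = 0.093). Pappa2, a secreted protease that cleaves binding proteins of insulin-like growth factors, stood at 24.5, 29.8 and 27.9 CPM in EV and 18.9, 16.3 and 15.9 CPM in N2NL. The RIKEN transcript D930028M14Rik stood at 17.4, 21.4 and 23.6 CPM against 11.7, 13.2 and 12.3 CPM.

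**Figure D2:**
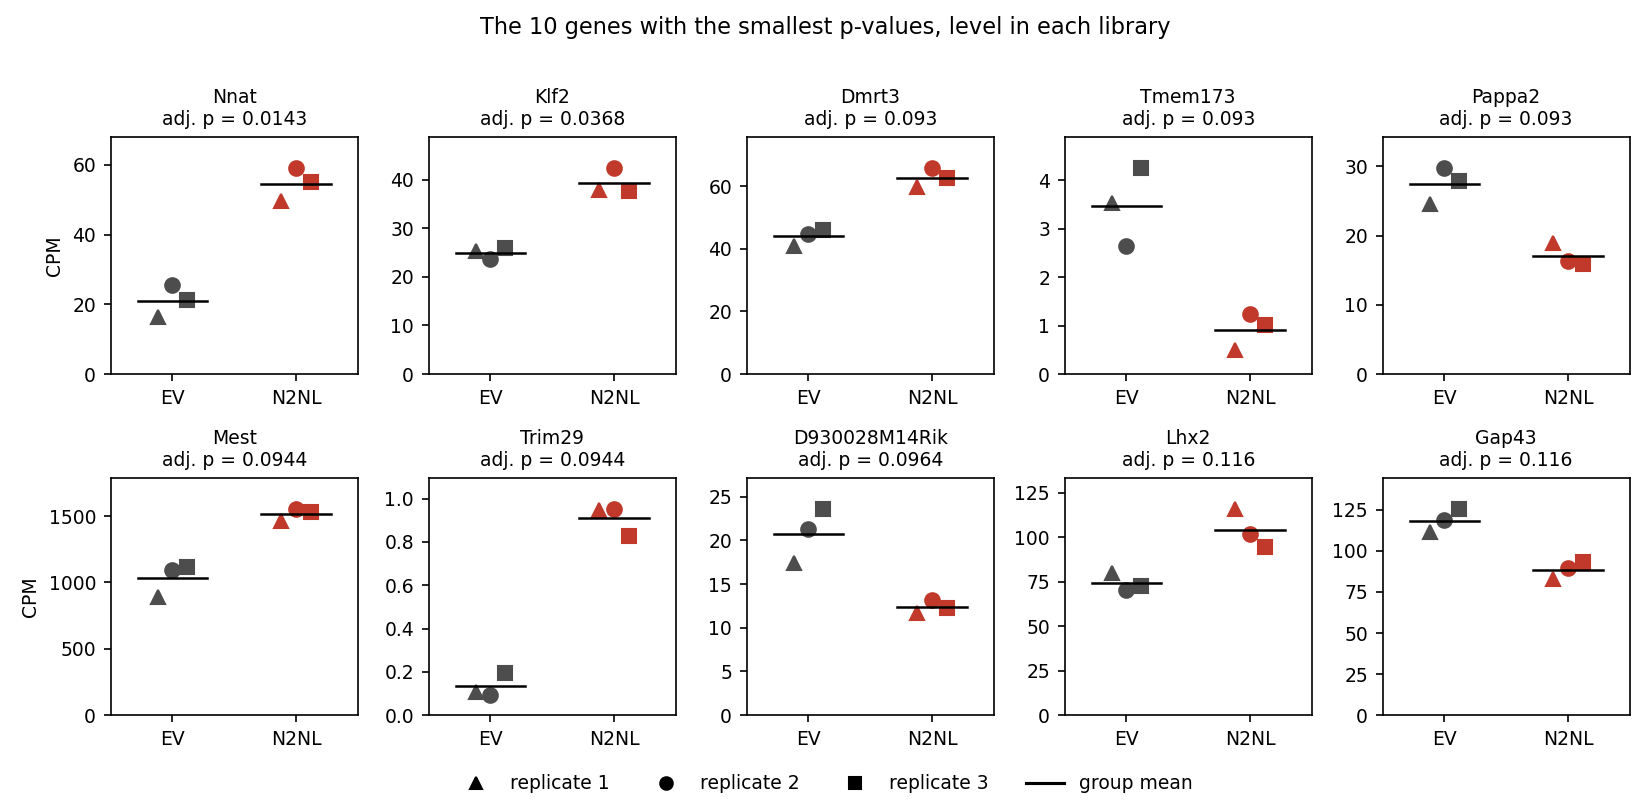
CPM in each library for the 10 genes with the smallest p-values (EV grey, N2NL red, the symbol giving the replicate, the line the group mean). Each panel has its own axis from 0, the edgeR adjusted p stands above it, and in all 10 panels the groups do not overlap.

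Transcription factors of the dorsal telencephalon, the part of the forebrain that forms the cortex, lay mostly higher in N2NL. None of the 19 tested passed edgeR's adjusted threshold, 9 had an unadjusted p under 0.05, all higher, and DESeq2 called 3, also higher. Of all genes tested, 5.11% lay higher and 2.34% lower at that unadjusted level, the shares set beside the lists below. These shares differed by abundance: of the 3337 genes with the highest mean CPM, 346 lay higher and 40 lower. No list was compared with genes of like abundance, so a lean toward higher values in strongly counted lists may be overstated. The list's median log2 fold change was 0.28, against -0.006 for all genes, and 17 of 19 members lay above 0. In bulk RNA, more cells of a type and more RNA of that type per cell cannot be told apart.

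Lhx2, a selector of cortical identity, stood at 79.9, 70.7 and 72.7 CPM in EV and 116, 102 and 94.8 CPM in N2NL, with no overlap (log2 fold change 0.49 ± 0.09, edgeR adjusted p = 0.116). Dmrt3, which is graded along the cortical primordium, went from 41.0, 44.7 and 46.1 CPM to 59.7, 65.7 and 62.5 CPM (0.51 ± 0.08, edgeR adjusted p = 0.093). Fezf2, a regulator of forebrain patterning and later of deep-layer neurons, stood at 61.9, 59.1 and 59.4 CPM against 80.9, 81.8 and 75.2 CPM (0.40 ± 0.07). These 3 were the members called by DESeq2.

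Genes beyond the 2 calls, the 10 smallest p-values, the Notch genes and the most abundant members of each list were chosen for naming after their values were seen. Emx1 and Emx2, homeobox genes of the cortical primordium, and Six3, which acts at the front of the brain, also had groups that did not overlap, with log2 fold changes of 0.43, 0.31 and 0.50. Otx2, a head gene whose domain reaches the midbrain, was the lowest member at -0.19, and Nr2f1 and Nr2f2, the most strongly counted members, stood at 0.05 and 0.03. On replicates 2 and 3 alone, 8 of 19 members passed the adjusted threshold, all higher (among them Emx2, Lhx2, Six3, Fezf2, Dmrt3 and Id4), and the median was 0.40. In EV 1 and N2NL 1, which that fit did not use, all 8 lay in the same direction, Emx2 by 0.112 on the log2 scale. The list was chosen with earlier results of these data known, so this is no independent check.

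**Figure D3:**
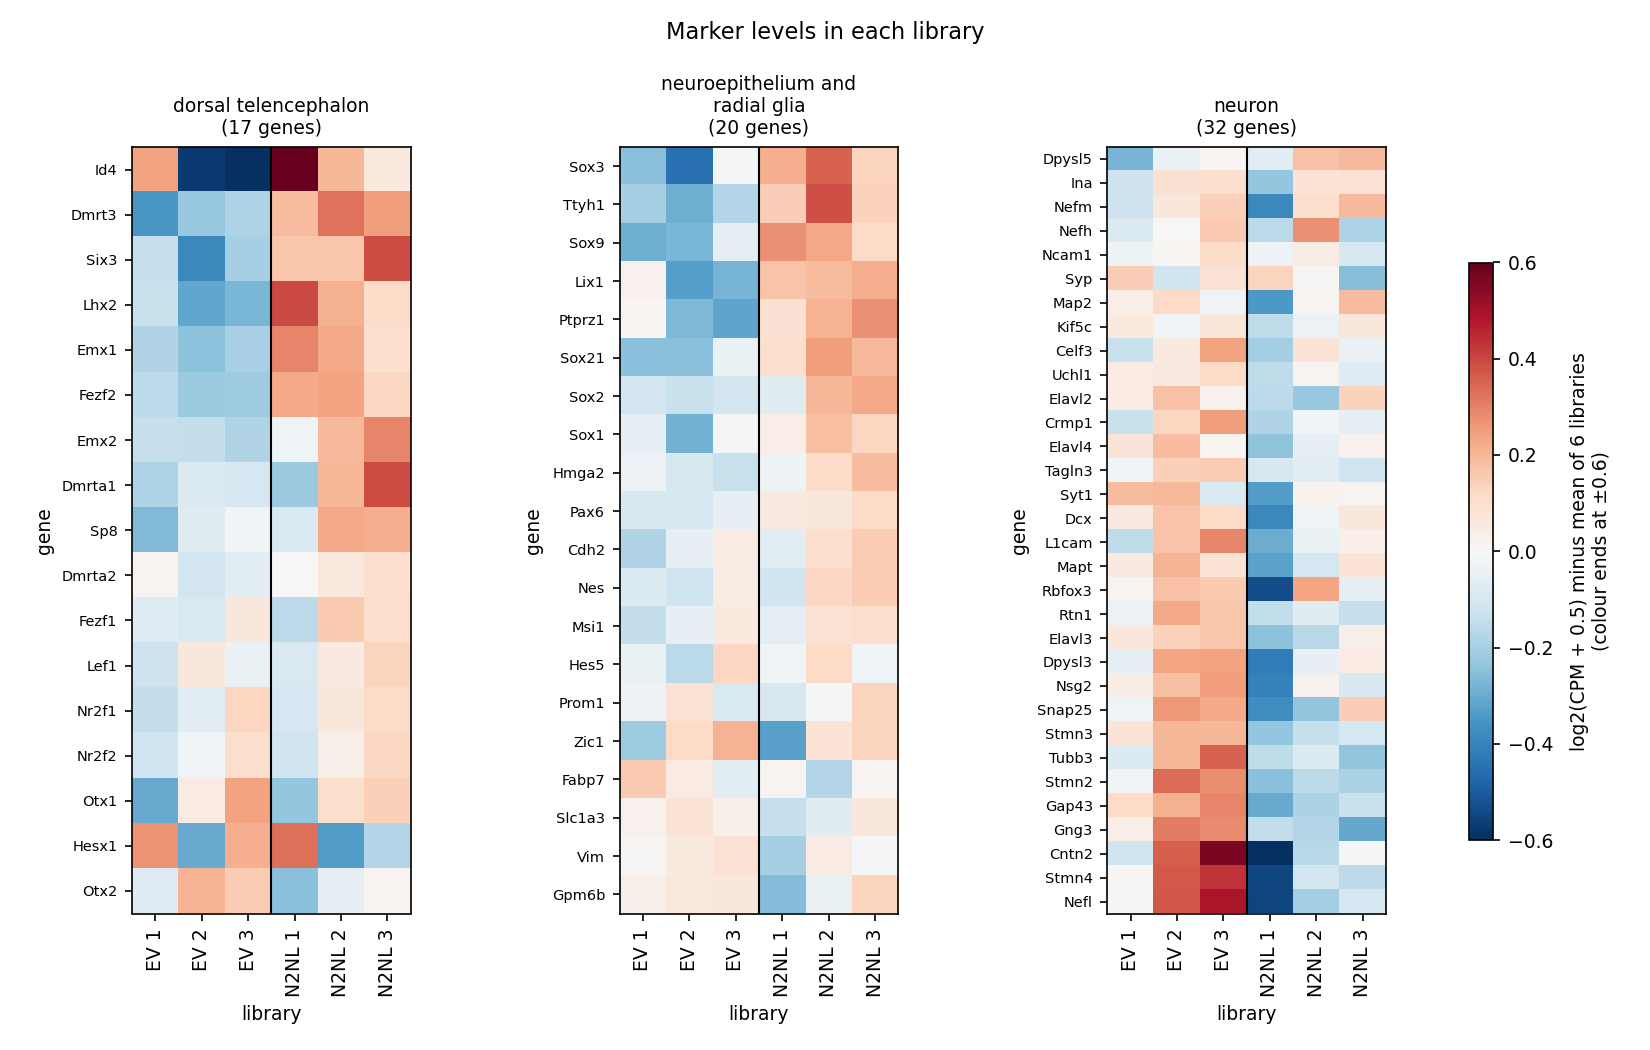
Each row is a gene and each column a library, and the colour is log2(CPM + 0.5) minus the gene's mean over the 6 libraries, ending at ±0.6 (17 of the 19 dorsal telencephalon genes are drawn). In the dorsal telencephalon and radial glia panels the upper rows are mostly red in N2NL, and in the neuron panel the lower rows are red in EV 2 and EV 3 and blue in N2NL 1.

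Markers of neuroepithelium and radial glia, the dividing progenitors of the brain, showed the same lean with smaller folds. Of 20 tested, edgeR called 0 and DESeq2 2, and the median log2 fold change was 0.14. For 10, unadjusted p was under 0.05 with all N2NL libraries above all EV libraries, and none lay lower at that level. Of all genes, 5.11% lay higher at that level, and 7.39% had all N2NL libraries above all EV libraries. Sox9, a progenitor factor later kept by astroglia, stood at 56.8, 57.6 and 66.9 CPM in EV and 84.2, 82.0 and 75.4 CPM in N2NL (0.41 ± 0.08, edgeR adjusted p = 0.178). Ttyh1, a membrane protein of neural stem cells, stood at 30.4, 28.6 and 30.9 CPM against 38.9, 45.9 and 38.6 CPM (0.46 ± 0.09). Both were called by DESeq2.

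The SoxB1 genes Sox1, Sox2 and Sox3, which keep neural progenitors undifferentiated, all had higher N2NL libraries without overlap. Sox3 stood at 41.2, 35.96 and 48.9 CPM in EV and 57.3, 63.003 and 54.1 CPM in N2NL (0.47 ± 0.11), Sox2 at a log2 fold change of 0.24 ± 0.08 and Sox1 at 0.23 ± 0.10. Sox21 (0.36), Ptprz1 (0.38) and Pax6 (0.16) lay the same way. Vim, Cdh2 and Msi1, the most strongly counted members besides Sox2, overlapped between groups, at -0.10, 0.12 and 0.09. On replicates 2 and 3 alone, 8 members passed the adjusted threshold, all higher, and all 8 lay in the same direction in the unused libraries, although Hmga2, Sox2 and Ptprz1 did so by at most 0.08 on the log2 scale. The whole SOX family was a grouping made after values were seen. At an unadjusted p under 0.05, 7 of 17 members lay higher and 1 lower, against 5.11% and 2.34% of all genes. The lower one was Sox10, a neural crest factor, at 11.9, 13.1 and 16.7 CPM in EV and 8.47, 8.32 and 10.7 CPM in N2NL.

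Neuronal markers lay lower in N2NL. Of 32 tested, 31 had a log2 fold change below 0 and the median was -0.22. EdgeR called none. At an unadjusted p under 0.05, 12 lay lower and 1 higher (Dpysl5, at 0.20), against 2.34% and 5.11% of all genes. DESeq2 called 3 of the 32 lower. In 12 members all 3 N2NL libraries lay below all 3 EV libraries, as they did for 5.31% of all genes.

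Gap43 stood at 111, 119 and 125 CPM in EV and 82.7, 89.4 and 93.1 CPM in N2NL (-0.42 ± 0.08, edgeR adjusted p = 0.116). Stmn2, a regulator of microtubules in growing axons, went from 98.4, 126 and 121 CPM to 83.6, 89.2 and 87.2 CPM (-0.41 ± 0.09, edgeR adjusted p = 0.222). Nefl, the light neurofilament subunit, stood at 86.1, 113 and 122 CPM against 59.3, 75.5 and 81.0 CPM (-0.58 ± 0.15, edgeR adjusted p = 0.456). In the 3 genes no N2NL library reached the lowest EV library, and these are the 3 that DESeq2 called.

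Tubb3, the neuronal beta tubulin, stood at 323, 393 and 437 CPM in EV and 307, 323 and 290 CPM in N2NL, where the top N2NL library came within 1 CPM of the lowest EV library. Stmn3 and Stmn4 had log2 fold changes of -0.32 and -0.56 without overlap. Among the stathmins, a grouping made after values were seen, all 4 tested lay below 0 and 3 did not overlap. Cntn2, an adhesion protein of axons, overlapped between groups at -0.56. Map2 (-0.08) and Uchl1 (-0.14), among the most strongly counted members, did not reach an unadjusted p of 0.05. N2NL 1 had the lowest neuronal level of all 6 libraries: the median member lay 0.24 below its mean over the 6, against 0.04 to 0.05 below in N2NL 2 and N2NL 3 and 0.16 to 0.18 above in EV 2 and EV 3. EV 1, at -0.003, lay closer to N2NL 2 and N2NL 3 than to the other EV libraries. On replicates 2 and 3 alone, 7 members passed the adjusted threshold, all lower (Tubb3, Stmn2, Stmn4, Gap43, Nefl, Gng3 and Cntn2), with a median of -0.18 over the list. All 7 also lay lower in N2NL 1 than in EV 1, though Tubb3 did so by a log2 ratio of only -0.073.

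**Figure D4:**
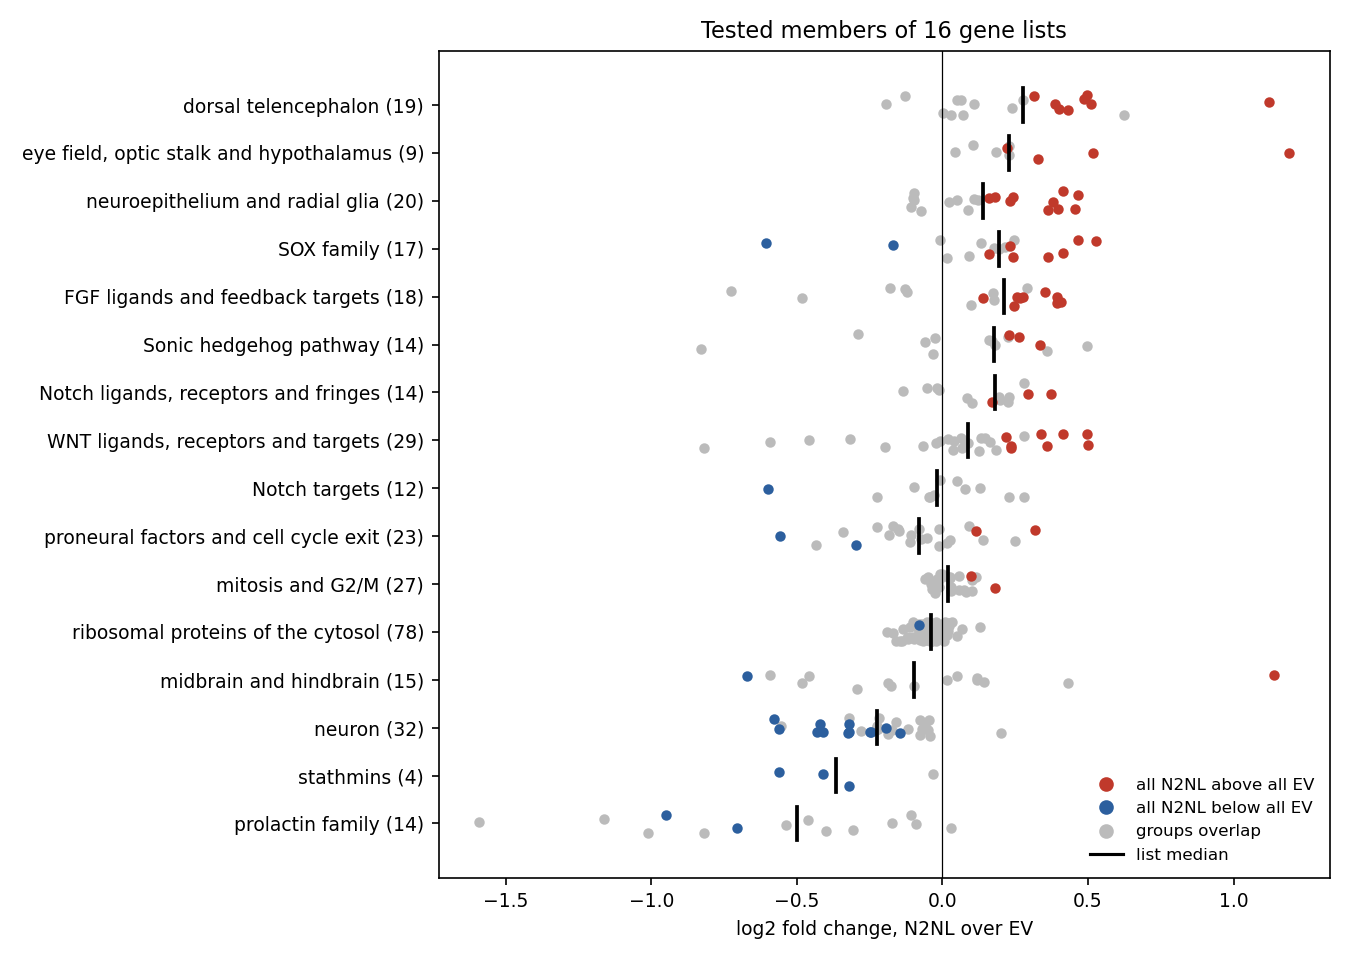
Log2 fold change of N2NL over EV for the tested members of 16 gene lists, the number tested in brackets, with the list's median as a black bar. Red members have all N2NL libraries above all EV libraries, blue members all below, and grey members overlap.

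Among the Notch genes, the receptors lay higher in N2NL and the Hes and Hey targets did not follow as a group. Notch2 stood at 121, 120 and 121 CPM in EV and at 139, 154 and 150 CPM in N2NL, so that its EV libraries were close to identical and all N2NL libraries lay above them. Its log2 fold change was 0.29 ± 0.07 (edgeR adjusted p = 0.241), and on replicates 2 and 3 it was 0.34 (edgeR adjusted p = 0.00929). NOTCH2NL is a near copy of part of the human counterpart of Notch2, and whether reads of the transgene were counted under mouse Notch2 was not tested. Notch3 stood at 137, 140 and 163 CPM against 162, 189 and 184 CPM, with N2NL 1 below EV 3 (0.28 ± 0.08, edgeR adjusted p = 0.456), and it passed the threshold on replicates 2 and 3 (edgeR adjusted p = 0.0287). Notch1 stood at 81.8, 91.8 and 109 CPM against 102, 117 and 112 CPM (0.23 ± 0.10), and Notch4, the endothelial receptor, at 0.19 ± 0.18.

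Of the ligands, Dll1, the main Delta ligand of nascent neurons, stood at 75.3, 82.0 and 91.8 CPM in EV and 93.8, 102 and 90.7 CPM in N2NL (0.20 ± 0.08), with N2NL 3 below EV 3. Jag2 lay at 0.17 ± 0.08 with no overlap, and Jag1 (-0.01), Dll3 (-0.05) and Dll4 (-0.14) overlapped between groups. Dlk1, an imprinted relative of the Delta ligands, stood at 28.4, 26.3 and 33.4 CPM against 41.1, 37.9 and 35.2 CPM (0.37 ± 0.10). Over the 14 tested ligands, receptors and fringes, edgeR and DESeq2 called none and the median was 0.18. At an unadjusted p under 0.05, 6 lay higher and none lower, against 5.11% and 2.34% of all genes. Strongly counted genes leaned higher in general: of the 3337 with the highest mean CPM, 346 lay higher and 40 lower at that level.

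The targets had a median of -0.02 over 12 tested genes. Hes1, a repressor of neuronal differentiation, stood at 39.7, 42.4 and 42.8 CPM in EV and 41.0, 47.6 and 48.0 CPM in N2NL (0.13 ± 0.09), and Hes5, the Notch target most specific to neural progenitors, at 62.1, 57.3 and 69.9 CPM against 63.4, 69.7 and 62.95 CPM (0.05 ± 0.09). Groups overlapped for both. Hey1 and Heyl were each at -0.04. Hey2 was the exception, at 3.85, 3.27 and 3.67 CPM in EV and 2.09, 2.56 and 2.49 CPM in N2NL, without overlap (-0.60 ± 0.20, edgeR adjusted p = 0.532). Hes7, the repressor of the somite clock, had too few counts to be tested, at 0.0947 to 0.357 CPM. No target was called by either tool, and at an unadjusted p under 0.05 the list held Notch1 and Notch3 higher and Hey2 and Id1 lower.

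Proteins that process Notch or carry its signal in the nucleus had a median of 0.10 over 24 genes, 17 of them above 0. Only the co-repressor Spen had an unadjusted p under 0.05, at 0.21. Their most strongly counted members, Tle1, Ncstn, Mib1 and Adam10, stood between -0.08 and 0.14. Proneural factors and genes of cell cycle exit had a median of -0.08 over 23 genes, with 1 higher and 3 lower at an unadjusted p under 0.05. The lower ones were Nhlh1, Neurod4 and Sstr2, which mark newborn neurons or their precursors, and the higher one was Eomes, a marker of intermediate progenitors and of early mesoderm, at 22.2, 17.8 and 18.3 CPM in EV and 24.8, 23.4 and 24.5 CPM in N2NL. Neither tool called a member of these lists.

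Genes of FGF signalling and its feedback, which patterns the front of the telencephalon, leaned higher. The median over 18 tested was 0.21. At an unadjusted p under 0.05, 8 lay higher and 1 lower, against 5.11% and 2.34% of all genes. In 9 members all N2NL libraries lay above all EV libraries, against 7.39% of all genes. No member was called by edgeR or DESeq2. Spry2, a feedback inhibitor, stood at 40.5, 45.6 and 40.1 CPM in EV and 52.9, 60.7 and 53.8 CPM in N2NL (0.41 ± 0.09, edgeR adjusted p = 0.222). Spry1 (0.39), Dusp4 (0.35), Spred2 (0.25) and Il17rd (0.27), also inhibitors of the pathway, and the effector Etv5 (0.28) were higher in every N2NL library, as was the receptor Fgfr1 at 0.26. The ligand Fgf15 went the other way, at 10.4, 16.2 and 20.0 CPM in EV and 9.22, 8.50 and 10.5 CPM in N2NL, with N2NL 3 just above EV 1 (-0.73 ± 0.21). Spry1, Spry2 and Dusp4 passed the threshold as higher on replicates 2 and 3, and Fgf15 as lower.

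The WNT genes that reached an unadjusted p under 0.05 on all 6 libraries all lay higher in N2NL. Wnt7b, a ligand of the cortical ventricular zone, stood at 255, 222 and 249 CPM in EV and 320, 342 and 305 CPM in N2NL (0.41 ± 0.08, edgeR adjusted p = 0.117, called by DESeq2), and Wnt7a at 13.8, 11.6 and 10.5 CPM against 16.5, 17.2 and 17.2 CPM (0.50 ± 0.12). The receptor Fzd7, outside the list, stood at 91.9, 97.7 and 102 CPM against 115, 132 and 130 CPM and was called by DESeq2 as well. Fzd1 (0.36), Fzd2 (0.24) and the secreted inhibitors Sfrp1 (0.22) and Sfrp2 (0.34) had higher N2NL libraries without overlap. Wnt1, a ligand of the dorsal midline and the midbrain, ran lower: 120, 198 and 207 CPM in EV against 80.6, 127 and 141 CPM in N2NL (-0.59 ± 0.31, edgeR adjusted p = 0.766). The groups overlapped for Wnt1, as EV 1 lay below N2NL 2 and N2NL 3. Over 29 genes the median was 0.09. At an unadjusted p under 0.05, 7 were higher and 0 lower, against 5.11% and 2.34% of all genes. On replicates 2 and 3, Wnt7a, Wnt7b, Fzd1 and Sfrp2 passed as higher and Wnt1, Wnt3 and Wnt3a as lower. All 7 lay the same way in the unused libraries, though Wnt3 did so by a log2 ratio of only -0.036.

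Members of the Sonic hedgehog pathway had a median of 0.18 over 14 genes, with no call by either tool. At an unadjusted p under 0.05, 5 were higher and 0 lower, against 5.11% and 2.34% of all genes. Gli3, whose protein represses hedgehog targets in the dorsal telencephalon, stood at 135, 135 and 147 CPM in EV and 150, 165 and 186 CPM in N2NL (0.26 ± 0.08). The receptor Ptch1 lay at 0.23 without overlap. In the retinoic acid list, 4 of 19 lay higher at that level, among them the degrading enzymes Cyp26b1 (0.34) and Cyp26c1 (0.66) and the receptor Rarg (0.23), and the median was 0.11. BMP and TGF-beta genes had a median of -0.03 over 23, with Bmp7 higher and Id1 and Id2 lower at an unadjusted p under 0.05.

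Atoh1 and Barhl1, which belong to no list and were chosen after their values were seen, had low counts and log2 fold changes below 0. Atoh1, the proneural factor of the rhombic lip, stood at 2.55, 7.25 and 7.97 CPM in EV and 1.49, 2.85 and 3.55 CPM in N2NL (-1.20 ± 0.49), and Barhl1, which acts with it in cerebellar granule cell precursors, at 3.85, 6.59 and 6.89 CPM against 1.99, 3.51 and 3.20 CPM (-1.01 ± 0.26). EdgeR adjusted p was 0.666 for Atoh1 and 0.342 for Barhl1. Replicate 1 was the lowest of its group for both genes in both groups. Both passed the adjusted threshold on replicates 2 and 3 alone, at -1.25 and -1.01. Over the midbrain and hindbrain list as a whole the median was -0.10, 7 of 15 members lay above 0, and 1 of 15 lay higher and 1 lower (Hoxb2) at an unadjusted p under 0.05. Its most strongly counted members, which include Wnt1, Irx3 and Lmx1b, overlapped.

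Dct, Trpm1 and Pmel, genes of pigment tissue chosen after their values were seen, had all N2NL libraries above all EV libraries. Dct, a melanin enzyme also expressed in the early telencephalon, stood at 1.41, 0.521 and 0.538 CPM in EV and 3.74, 2.91 and 2.31 CPM in N2NL (1.89 ± 0.35, edgeR adjusted p = 0.141, called by DESeq2). Trpm1, a channel of melanocytes and retina, stood at 7.22, 2.51 and 2.298 CPM against 16.3, 11.4 and 11.2 CPM (1.71 ± 0.46, edgeR adjusted p = 0.532), and Pmel at 5.75, 3.70 and 3.47 CPM against 8.97, 6.60 and 6.45 CPM (0.78 ± 0.21). In each of the 3 genes replicate 1 was the highest of its group in both groups. All 3 passed the threshold on replicates 2 and 3 alone, with log2 fold changes of 2.29 for Dct (edgeR adjusted p = 1.2e-04), 2.22 for Trpm1 (edgeR adjusted p = 1.3e-11) and 0.86 for Pmel (edgeR adjusted p = 0.0104). In the unused pair the log2 ratios were 1.149, 1.121 and 0.599. Tyr, Tyrp1 and Mlana, defining genes of pigment cells, had too few counts to be tested, none above 0.488 CPM in any library. Mitf, the regulator of pigment cells, stood at 5.57 to 7.92 CPM in EV and 7.10 to 8.72 CPM in N2NL. Of 9 tested genes of eye field, optic stalk and hypothalamus, all lay above 0 with a median of 0.23, and Six6, Pax2 and Rax were higher at an unadjusted p under 0.05, none of them called by either tool.

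The imprinted genes include Nnat, the larger of the edgeR calls, and 9 of the 28 tested lay above 0. Besides Nnat and Mest, Dlk1 and Magel2 lay higher and Grb10 lower at an unadjusted p under 0.05, and the median was -0.09. H19, a transcript of the maternal copy, stood at 68.3, 20.2 and 27.3 CPM in EV and 35.9, 21.3 and 20.6 CPM in N2NL, and Igf2, its paternal neighbour, at 2183, 1508 and 1475 CPM against 1967, 1497 and 1400 CPM. For both genes the highest library of each group was replicate 1 and the groups overlapped, as they did for Cdkn1c (-0.22) and Phlda2 (-0.42).

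Of 23 pluripotency genes, edgeR and DESeq2 called Klf2 alone, but 21 lay above 0 and the median was 0.11. In 6 members all N2NL libraries lay above all EV libraries, against 7.39% of all genes. At an unadjusted p under 0.05, 5 lay higher and 0 lower, against 5.11% and 2.34% of all genes. Utf1, a chromatin factor of embryonic stem cells, stood at 49.1, 50.6 and 52.3 CPM in EV and 68.0, 71.3 and 59.5 CPM in N2NL (0.39 ± 0.08, edgeR adjusted p = 0.222). Klf4 (0.26) and Klf5 (0.23), which act alongside Klf2 in the naive state, had higher N2NL libraries without overlap at smaller folds. The core factors overlapped between groups, with Pou5f1 at 0.13, Nanog at 0.08 and Esrrb at 0.08.

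Markers of trophoblast, the outer cells of the placenta, were present in every library, with values that differed between libraries of a group. Over 14 prolactin family genes, a grouping made after values were seen, the median log2 fold change was -0.50, with 3 lower and 0 higher at an unadjusted p under 0.05, and DESeq2 called Prl2a1. Prl2a1 stood at 20.7, 15.8 and 15.1 CPM in EV and 12.1, 7.49 and 6.92 CPM in N2NL (-0.95 ± 0.21, edgeR adjusted p = 0.278). The summed level of the family was 282.8 to 401 CPM in EV and 241 to 378 CPM in N2NL. Trophoblast specific protein alpha, second by p-value on replicates 2 and 3, stood at 151 and 128 CPM in EV 2 and 3 and 60.4 and 69.9 CPM in N2NL 2 and 3, but at 136 CPM in EV 1 and 150 CPM in N2NL 1. The family's median was -1.04 without N2NL 1 and -0.31 without N2NL 2.

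The other cell type lists held no member called by edgeR or DESeq2 on all 6 libraries. The summed level of the surface epithelium list was 1267 to 2006 CPM in EV and 953 to 1792 CPM in N2NL, and no member reached an unadjusted p of 0.05 on all 6 libraries. Krt8, Krt18 and Krt19 passed the threshold as lower in N2NL on replicates 2 and 3, while in replicate 1 the log2 ratio was 0.002 for Krt8, -0.20 for Krt18 and -0.47 for Krt19, so 2 of the 3 had the same direction there. Medians were -0.03 for ventral telencephalon, 0.02 for cortical hem and choroid plexus, 0.12 for deep-layer and Cajal-Retzius neurons, 0.01 for neural crest and mesenchyme, 0.03 for endoderm, 0.06 for mesoderm, 0.01 for astroglia and oligodendrocytes and -0.16 for endothelium, blood and microglia. A median near 0 can hide members on both sides. At an unadjusted p under 0.05, 2 of 16 neural crest and mesenchyme genes lay higher and 3 lower, against 5.11% and 2.34% of all genes. Of 9 mesoderm genes 1 lay higher and 1 lower, and of 13 ventral telencephalon genes 2 lay higher and 0 lower. The deep-layer and Cajal-Retzius list was mixed, with 9 members above 0 and the rest below. Of its 15 members, 4 had all N2NL libraries above all EV libraries and 1 all below, against 7.39% and 5.31% of all genes. At an unadjusted p under 0.05, 1 lay higher and 2 lower, against 5.11% and 2.34% of all genes. On replicates 2 and 3 edgeR called 1 higher and 0 lower. The part of these cell types in the neural differences was not tested.

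Lists of cell division and general metabolism had medians near 0. Genes of mitosis had a median of 0.02 over 27 tested and a range of -0.06 to 0.18, and genes of DNA replication a median of 0.04 over 26. Medians were -0.01 for glycolysis and the hypoxia response, -0.04 for p53 targets, -0.10 for immediate early genes, -0.04 for amino acid and folding stress, 0 for cholesterol synthesis and -0.05 for the interferon response. Extracellular matrix genes lay at 0.07, axon guidance and adhesion genes at 0.02, germline genes at 0.10 and sex chromosome genes at -0.08. Among families taken by description, medians were 0.01 for 348 zinc finger protein genes, 0.03 for clustered protocadherins, -0.14 for clustered histones and -0.07 for mitochondrially encoded genes. Of those grouped after values were seen, they were 0.08 for Krüppel-like factors, 0.08 for frizzled receptors, -0.01 for aminoacyl-tRNA synthetases and -0.41 for 2 pregnancy-specific glycoproteins. Neither tool called a member of these lists and families apart from Klf2 and Fzd7, described above. Ribosomal proteins of the cytosol had a median of -0.04 over 78 genes, of which 12 lay above 0, and 0 reached an unadjusted p of 0.05. Nuclear-encoded subunits of the respiratory chain had a median of -0.09 over 79, of which 12 lay above 0, with 2 higher and 3 lower at that level.

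The 366 genes called on replicates 2 and 3 could be read in EV 1 and N2NL 1, which that fit did not use. The difference between those 2 libraries had the same direction for 262 of the 366 (71.6%), against 52% of all genes tested. By direction, it was the same for 156 of 181 higher genes, against 4300 of 8458 among all genes higher in that fit. For lower genes it was the same for 106 of 185, against 4385 of 8229, a smaller excess. The median log2 ratios of the called genes in the unused pair were 0.21 and -0.07. Groups of genes differed in this respect. The 16 dorsal telencephalon and radial glia genes and the 7 neuronal genes all kept their direction, while the 12 ribosomal proteins, all called lower on replicates 2 and 3, were all higher in N2NL 1 than in EV 1. Ribosomal protein S18, for example, stood at 1008 and 1199 CPM in EV 2 and 3 and 884 and 791 CPM in N2NL 2 and 3, but at 822 CPM in EV 1 and 1362 CPM in N2NL 1. Of 5 prolactin family genes called lower, 3 kept their direction. These are counts over 1 pair of libraries, which are not matched, with no test. All genes tested are an unlike comparison: their median log2 fold changes in that fit were 0.12 for higher and -0.13 for lower genes. For the called genes these medians were 0.35 and -0.48. The gap in shares therefore does not show that the calls reproduce. The lists were chosen with earlier results of these data known, so their agreement is no independent check.

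**Figure D5:**
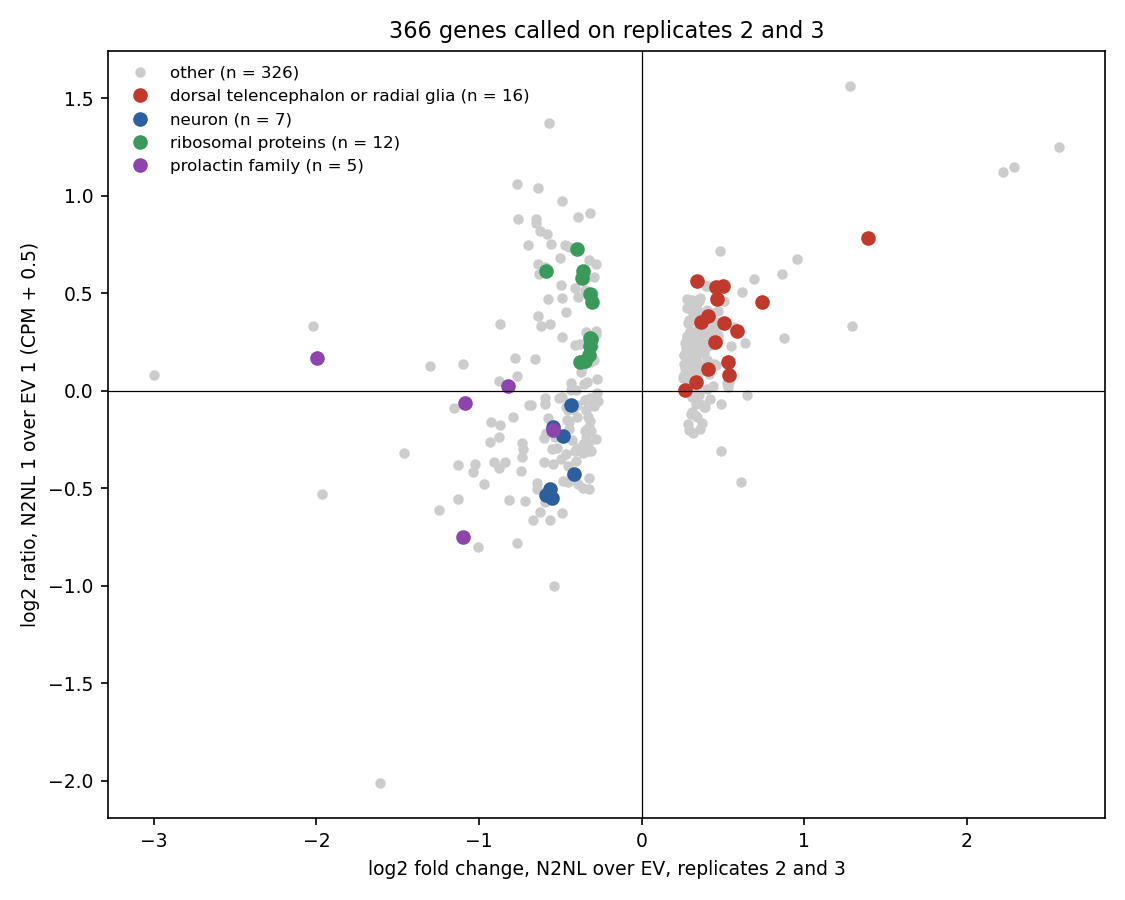
For the 366 genes called on replicates 2 and 3, the log2 fold change in that fit (horizontal axis) against the log2 ratio of N2NL 1 over EV 1 (vertical axis), with 0.5 CPM added. Telencephalic and radial glia genes (red) lie upper right and neuronal genes (blue) lower left, while ribosomal proteins (green) lie upper left, on the opposite side of 0 in the unused pair.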

How the data were processed

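Poly(A)-selected RNA of the 6 pools was sequenced with a strand-specific kit, per the labels' protocols. Aligners STAR 2.4.0 and Bowtie2 2.3.3.1, the trimmer Trimmomatic 0.36, the counter HTSeq 0.6.1p1, DESeq2 2.11.39 and the build GRCm38/mm10 are listed in the submitters' processing notes. How they were combined and the strand setting of counting are not stated there. The deposited values are the authors' read counts per Ensembl gene. The authors' normalized values, treated as a score, were used for NOTCH2NL and for Notch2 beside it, and the authors' test statistics were not used. HTSeq's summary rows, among them reads without a feature (5.77% to 6.5%) and with several alignments (26.64% to 33.67%), were left out.

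Symbols were assigned from the deposited gene descriptions, which matched 696 of 697 listed symbols. Counts were filtered with filterByExpr, scaled by TMM and tested with edgeR 4.0.16 (R 4.3.3; robust quasi-likelihood F test on group, Benjamini-Hochberg adjustment over all tested genes, threshold 0.05). CPM uses scaled library sizes, and the approximate standard error is the log2 fold change divided by the square root of F. An exact permutation of 3 against 3 cannot go below p = 0.1. The test was checked on simulated data.

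The comparison, the 37 lists and 6 families were chosen with earlier results of these data known, and 7 families were added after values were seen. Named genes were all called genes, the 10 smallest p, called list members, Notch receptors, ligands and HES and HEY targets, and up to 4 of the highest members of a list without a call. A few genes counted within the lists are not reported here by name. Others are named as chosen after their values were seen. Alternatives were other scaling, filters, DESeq2 1.42.0, limma 3.58.1 (voom), a fit without robust estimation, the replicate number as a block, leaving out each library, and leaving out both libraries numbered 1.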

Additional observations from a re-analysis of the deposited data

How the results depend on the processing

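The number of genes called by edgeR was 2 with RLE factors, with library size alone and with a mean of at least 1 CPM. It was 117 without a filter on low counts (79 higher and 38 lower, of 30552 genes), 26 with DESeq2, 1 with limma-voom and 1 without robust estimation. The cause of these differences was not tested. Leaving out 1 library gave 0 to 17 calls, and leaving out both libraries numbered 1 gave 366. Where the count was 0, unadjusted p was under 0.05 for 1719 genes without EV 3, 603 without N2NL 2 and 1071 without N2NL 3. The median of all genes stayed between -0.015 and 0.003.

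With the replicate number as a block, 21 genes were called (8 higher, 13 lower), 11 of them also called by DESeq2. Deviations from the group means correlated at 0.14, 0.02 and 0 between libraries of the same number, so the numbers were not taken as pairs.

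Nnat kept its direction in all 15 alternatives (1.22 to 1.53) and so did Klf2 (0.60 to 0.69). Of 614 values for 41 genes, 7 reversed, all near 0: Dll3 was at 0.12 without EV 3 and 0.05 without N2NL 1 (range with 1 library left out -0.21 to 0.12), Jag1 at 0 without EV 3 and 0.02 without N2NL 3 (-0.05 to 0.02), Heyl at 0 without EV 3 and 0.01 without N2NL 3 (-0.11 to 0.01), and Hes5 at -0.01 without EV 2. Of 735 list medians, 692 moved by less than 1 SD between replicates. The dorsal telencephalon median ranged from 0.19 to 0.40 and the neuron median from -0.28 to -0.13.

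With 3 pools a group, genes under about 2 CPM rest on few counts, and a count of 0 allows up to 0.143 to 0.179 CPM for counting error only.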

Other observations

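Cad, Gldc, Nol9 and Rassf4 were called by DESeq2 and not by edgeR on all 6 libraries with the filter on low counts, and were chosen for naming after their values were seen. EdgeR called all 4 without that filter and on the 4 libraries numbered 2 and 3. Cad, the enzyme that starts pyrimidine synthesis, stood at 159, 171 and 201 CPM in EV and 230, 252 and 238 CPM in N2NL (log2 fold change 0.44, edgeR adjusted p = 0.146). Gldc, the glycine decarboxylase of the mitochondrion, stood at 182, 197 and 209 CPM against 251, 256 and 247 CPM (0.36). Nol9, a kinase of ribosomal RNA processing, stood at 74.1, 72.9 and 74.2 CPM against 92.2, 98.5 and 97.6 CPM (0.38). Groups did not overlap in any of the 3 genes. Rassf4 lay lower, at 72.1, 70.3 and 65.2 CPM in EV and 56.5, 47.7 and 48.2 CPM in N2NL (-0.44).

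The direction of small unadjusted p-values differed by abundance. Among the 3337 genes with the highest mean CPM (81.7 CPM and above), 346 lay higher and 40 lower in N2NL at an unadjusted p under 0.05, and among the 3337 with the lowest mean (up to 2.24 CPM) 53 lay higher and 90 lower. The median log2 fold changes of these sets were 0.005 and -0.03. Whether the counts of the gene lists exceed those of other genes of like abundance was not tested.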
